A study of Mus musculus with 6 samples.

Results

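The 10 genes described here encode enzymes that build N-acetyllactosamine (LacNAc) chains on glycans, or the related type 1 and LacdiNAc units and the I branch. The 10 were chosen by name from the biochemistry of the chains, with earlier results of these data known. They are not all such enzymes on the array, since B3galt5, B4galnt4 and others are described with the enzyme families below. All 10 of 10 were found among the 909 genes that the array table names through the RefSeq accession in each probe set's own name. They were measured by 11 of the table's 1246 probe sets, since B3galt1 had 2. For that gene the probe set with the higher mean stands for the gene.

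The study measured RNA on 6 Affymetrix arrays from MLE-15, a mouse lung epithelial line that carries the SV40 large T antigen and was derived from lung tumours of mice expressing it from the human surfactant protein C promoter. The groups were 3 arrays of cells treated with the phorbol ester PMA (phorbol 12-myristate 13-acetate), an activator of protein kinase C, and 3 arrays of control cells without it. PMA was given at 10 nM for 24 h, according to the text on the series, and the study asked which glycan-modifying and mucin genes these cells express and whether PMA induces them. Both groups carry replicate numbers 1, 2 and 3, and in the sample names numbers 2 and 3 also have a letter, which number 1 lacks. Separate cultures cannot be told from repeat hybridisations by the labels, and p-values therefore reflect only the variation among these arrays, which may be technical.

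LacNAc is the disaccharide of galactose linked β1,4 to N-acetylglucosamine (GlcNAc). A β1,4-galactosyltransferase adds the galactose and a β1,3-GlcNAc-transferase adds the next GlcNAc, so that alternation of both enzymes gives poly-LacNAc. A β1,6-GlcNAc-transferase turns a linear (i) chain into a branched (I) one, a β1,3-galactosyltransferase makes the type 1 unit, and replacement of galactose by N-acetylgalactosamine gives LacdiNAc. The chains are extended on N-glycans, O-glycans and glycolipids, are bound by galectins, and carry the sialic acid, fucose and sulfate groups that end many airway glycans.

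Levels are the deposited RMA values on the log2 scale, on which 1 unit is a 2-fold difference. Array medians ran from 5.64 to 5.71 and lower quartiles from 4.32 to 4.43. The table gives no background signal, so no gene is called present or absent, and levels of different probe sets are not ranked against each other. The number 1 arrays stood away from the other 4 arrays, with 519 of 1246 probe sets (41.7%) differing at an adjusted p under 0.05, while numbers 2 and 3 differed at 0 probe sets by limma (61, or 4.9%, had an unadjusted p under 0.05). Of 13 listed lung epithelial markers only the surfactant proteins Sftpa1 and Sftpd had a probe set named here. Sftpa1 averaged 3.49 in PMA arrays and 3.53 in control arrays, below the lower quartile of every array, and Sftpd averaged 5.38 in PMA arrays and 5.42 in control arrays, so the labelled cell type could be checked on few genes only.

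The sequences before the transcription starts of the 4 members with 1 listed start that differed between the numbers are given here, to show the region where RNA of each begins. Each is the 250 bases before the start, 5′ to 3′ in the direction of transcription, from RefSeq on GRCm38.p6, and capitals mark GGGCGG (the GC box bound by Sp1-type factors) or CCAAT on either strand. The windows are chr4:40853985-40854234 on the minus strand for B4galt1, chr4:117883477-117883726 on the minus strand for B4galt2, chr1:86302971-86303220 on the plus strand for B3gnt7 and chr11:22859736-22859985 on the minus strand for B3gnt2.
B4galt1: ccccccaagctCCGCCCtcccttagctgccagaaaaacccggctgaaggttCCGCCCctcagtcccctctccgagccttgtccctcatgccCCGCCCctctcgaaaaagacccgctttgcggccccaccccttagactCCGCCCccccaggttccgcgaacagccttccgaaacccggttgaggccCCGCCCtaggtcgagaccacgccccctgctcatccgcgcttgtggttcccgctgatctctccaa
B4galt2: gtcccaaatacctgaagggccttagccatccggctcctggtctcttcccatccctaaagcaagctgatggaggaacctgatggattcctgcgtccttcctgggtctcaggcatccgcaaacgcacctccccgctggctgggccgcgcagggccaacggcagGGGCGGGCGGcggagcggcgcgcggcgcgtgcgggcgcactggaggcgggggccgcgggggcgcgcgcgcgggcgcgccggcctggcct
B3gnt7: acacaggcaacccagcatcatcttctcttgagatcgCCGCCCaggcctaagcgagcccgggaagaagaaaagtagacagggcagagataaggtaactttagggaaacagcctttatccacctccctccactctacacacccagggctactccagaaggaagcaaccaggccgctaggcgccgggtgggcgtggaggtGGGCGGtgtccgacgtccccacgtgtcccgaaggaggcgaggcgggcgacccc
B3gnt2: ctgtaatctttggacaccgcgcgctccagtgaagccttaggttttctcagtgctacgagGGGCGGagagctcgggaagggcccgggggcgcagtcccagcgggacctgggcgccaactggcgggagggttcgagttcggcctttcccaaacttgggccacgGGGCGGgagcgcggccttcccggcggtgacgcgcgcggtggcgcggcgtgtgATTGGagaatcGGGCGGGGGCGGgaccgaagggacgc

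All 10 members had at least 1 window in the table, 13 windows in all, since Gcnt2 has 3 listed starts and B3galt1 has 2. GGGCGG on either strand was found in 9 of the 13 windows, belonging to 9 of the 10 genes, and in 32.7% of all 32851 windows of the same length. B4galt1 held 5 matches and B3gnt2 held 4, of which one pair lies end to end, and the 2 matches of B4galt2 overlap. CCAAT was found in 4 of the 13 windows and in 33.9% of all windows, and B3gnt2 holds 1 match. TATAAA was found in 0 of the 13 windows, against 12.4% of all windows. TGANTCA, with any base at N, is a looser pattern that takes in the AP-1 site through which phorbol esters are known to act. This looser pattern was found in 0 of the 13 windows and in 6.75% of all windows. TGACGTCA, the cyclic AMP response element, was found once, in B4galt3, against 1.55% of all windows. CACGTG, the E-box, was found in 1 of the 13 windows, that of B3gnt7, and in 6.02% of all windows. The windows of members ran from 41.2% to 72.8% G and C, with a median of 52.4% over all windows. These matches describe the letters of the windows and were not tested as binding sites.

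PMA was compared with control over the 10 members first. None of the 10 passed, and the largest absolute difference was 0.17 log2 units, in Gcnt2. By limma with Benjamini-Hochberg adjustment, 0 of 10 members passed (background 0%, 0 of 1246 probe sets), and 0 of 10 had an unadjusted p under 0.05. This fit has no term for the replicate number. The SEs of PMA differences come from it unless a block is named, so they hold the spread between numbers. Over all probe sets 4 had an unadjusted p under 0.05 (0.321%), namely Mrpl52, Siglech and the unnamed NM_010646.1_psr1_s_at and uc007uzj.1_psr1_s_at, which are given because of that count and not by the rule for naming genes. The PMA mean was above the control mean for 5 of 10 members (52.2% of all probe sets) and below it for 5, and the median difference was 0.0026 log2 units beside 0.0033 over all probe sets. The median absolute difference was 0.043 for the members and 0.050 for all probe sets.

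Gcnt2 encodes the β1,6-GlcNAc-transferase that makes I branches, known in humans as the I blood group enzyme. It stood at 7.83, 8.48 and 8.51 in PMA arrays 1, 2 and 3, against 7.69, 8.19 and 8.43 in control arrays 1, 2 and 3. PMA was the higher array in each number, by 0.14, 0.29 and 0.078, while the groups as a whole overlapped because both number 1 arrays were low. The mean difference was 0.17 log2 units (SE 0.27). With the replicate number as a block the SE was 0.070 and the 95% interval ran from 0.011 to 0.33, but the adjusted p by limma was 0.992 (unadjusted p = 0.0385). It was the only member with an unadjusted p under 0.05 in that fit, in which 3.37% of all probe sets had one.

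B3galt1 and B4galnt3 were the only members whose PMA and control arrays did not overlap, and neither passed in the comparison of number 1 described below. B3galt1, a β1,3-galactosyltransferase that makes type 1 chains, stood at 3.63, 3.58 and 3.53 in PMA arrays 1, 2 and 3, against 3.50, 3.42 and 3.41 in control arrays. The PMA arrays were all above the control arrays, by a mean of 0.14 (SE 0.061, limma adjusted p = 0.999). Its other probe set stood at 3.30, 3.21 and 3.32 in PMA arrays and 3.17, 3.25 and 3.18 in control arrays, where the groups overlapped, a difference of 0.079 (SE 0.062). Both probe sets were below the lower quartile of all 6 arrays, and the one that stands for the gene carries the suffix x, which marks probes that can bind other transcripts.

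B4galnt3, the β1,4-N-acetylgalactosaminyltransferase that makes LacdiNAc, stood at 4.61, 4.72 and 4.72 in PMA arrays, against 4.84, 4.80 and 4.80 in control arrays. Every PMA array was below every control array, with differences of -0.24, -0.087 and -0.087 in numbers 1, 2 and 3. The mean difference was -0.14 (SE 0.061, limma adjusted p = 0.999). Groups that do not overlap were found in 3.37% of all probe sets, 1.61% with PMA higher and 1.77% with PMA lower. All 3 numbers had the same sign for 3 of 10 members, Gcnt2 and B3galt1 up and B4galnt3 down, against 23.1% of all probe sets, 10.4% up and 12.7% down.

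The 4 β1,4-galactosyltransferases, which add the galactose of LacNAc, had PMA differences of mixed sign. B4galt1, the main enzyme of this family and, with α-lactalbumin, the lactose synthase of the mammary gland, differed by -0.26, 0.38 and -0.0034 in numbers 1, 2 and 3, a mean of 0.041 (SE 0.56). With the number as a block the SE of B4galt1 was 0.11. B4galt2 differed by a mean of -0.038 (SE 0.20). B4galt3 differed by 0.010 (SE 0.079), and by -0.0022 when each array was centred on its median. B4galt4, which acts on 6-sulfated GlcNAc and is used in keratan sulfate chains, differed by -0.071 (SE 0.12).

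The β1,3-GlcNAc-transferases, which extend the chain, gave means near 0. B3gnt2, the main poly-LacNAc extension enzyme, differed by -0.25, 0.13 and -0.0064 in numbers 1, 2 and 3, a mean of -0.044 (SE 0.42). B3gnt7, which extends the chains of keratan sulfate, differed by -0.0050 (SE 0.81), and by 0.00093 after a further quantile normalization. With the number as a block the SE was 0.066 for B3gnt7 and 0.083 for B3gnt2. B3gnt4 differed by 0.024 (SE 0.084), with groups that overlapped. None of these differences passed the test.

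The width of the interval around each PMA difference depended on the fit. With the replicate number as a block, the 95% interval of the PMA difference lay within 0.58 log2 units of 0 for 10 of 10 members and 99.7% of all probe sets. The outermost bounds among members were -0.29, in B4galnt3, and 0.33, in Gcnt2. Without the block, 7 of 10 members (88.6% of all probe sets) had an interval within 1 log2 unit. The other 3 were B4galt1, B3gnt2 and B3gnt7, the members with the widest spread between numbers.

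**Figure D1:**
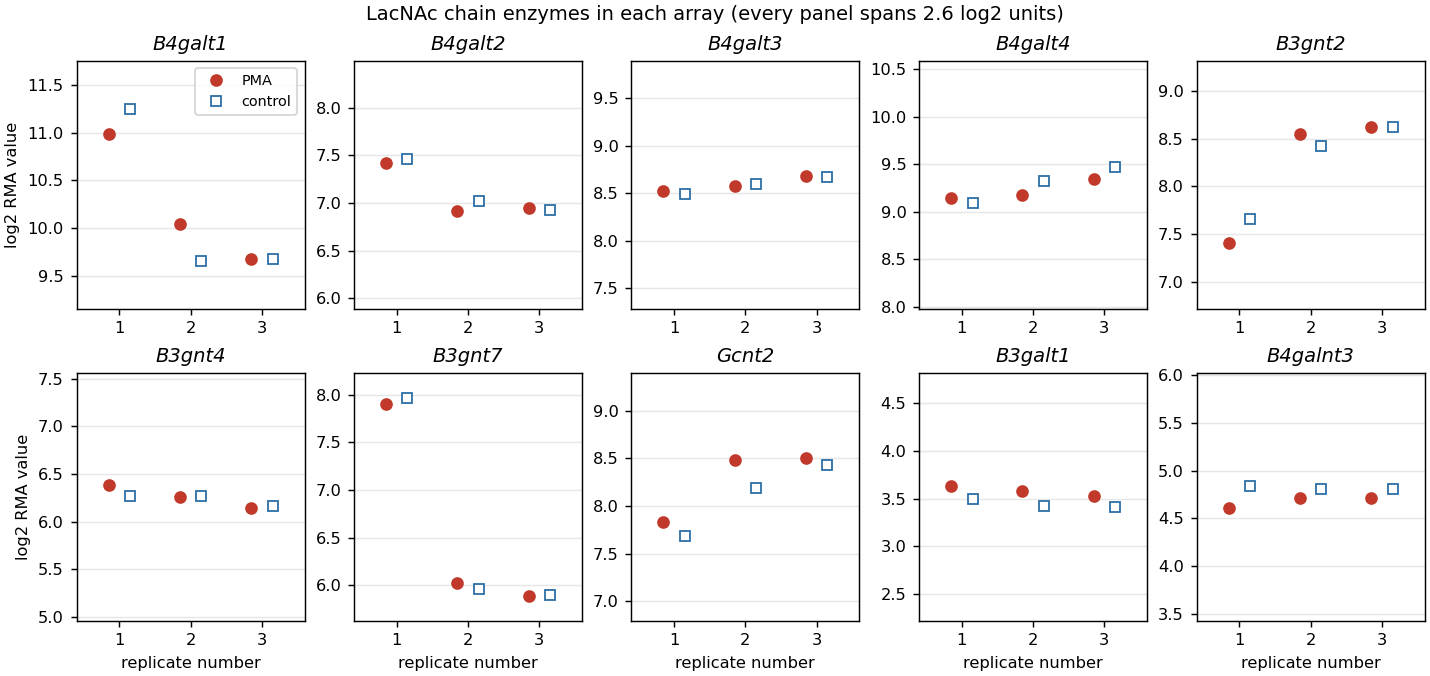
Deposited log2 RMA value (y axis) of each of the 10 genes by replicate number (x axis), with PMA arrays as filled circles and control arrays as open squares, 1 point per array. Number 1 stands apart from numbers 2 and 3 in B4galt1, B4galt2, B3gnt2, B3gnt7 and Gcnt2, while PMA and control lie close together within a number.

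**Figure D2:**
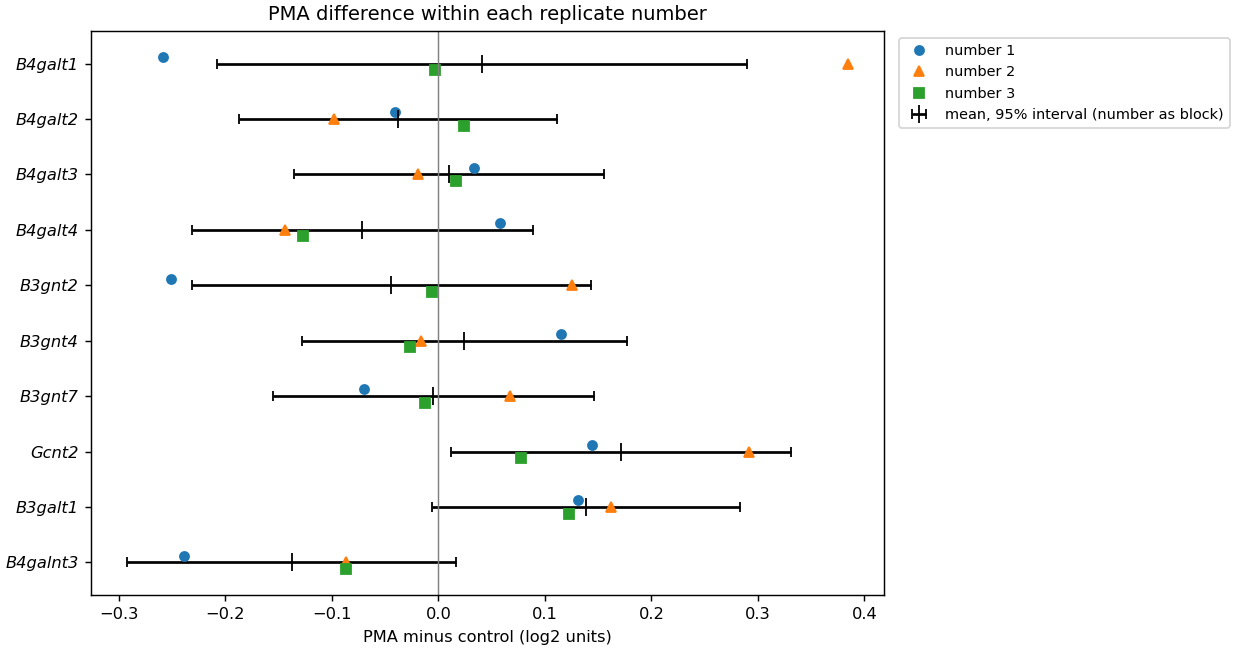
PMA minus control in log2 units (x axis) for each gene (y axis), with 1 marker per replicate number and a bar for the mean and its 95% interval in the fit with the number as a block. The 3 numbers have the same sign in Gcnt2, B3galt1 and B4galnt3, and every interval lies within 0.58 log2 units of 0.

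Number 1 was then compared with numbers 2 and 3, with PMA as a term of the fit. Of the 10 members 3 were higher in number 1 (B3gnt7, B4galt1 and B4galt2) and 2 were lower (B3gnt2 and Gcnt2), by limma with Benjamini-Hochberg adjustment. That is 50% of the members, beside 41.7% of all probe sets called, 27.5% higher and 14.1% lower, so the share called is near that of the whole table. The median absolute difference was 0.35 log2 units for the members and 0.17 for all probe sets (0.19 for all named genes), a contrast that was not tested. Among the lists described below it was 0.73 for other transferases of the same families and 0.38 for donor synthesis and transport. It was 0.24 for caps and sulfation, 0.16 for acceptor arms and cores, and 0.14 for readers, carriers and degradation. A difference over 1 log2 unit in size was seen in 3 of 10 members and 9.23% of all probe sets. Number 1 is 1 pair of arrays against 2 pairs, so these p-values describe these arrays only, and in RNA from whole cultures fewer cells of a kind and less RNA per cell cannot be told apart.

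B3gnt7 had the largest difference of the members. It stood at 7.90 in PMA array 1 and 7.97 in control array 1, against 6.03 and 5.88 in PMA arrays 2 and 3 and 5.96 and 5.90 in control arrays 2 and 3. Both number 1 arrays were above the other 4, by 1.95 in PMA arrays and 2.04 in control arrays. The difference over all 6 arrays was 1.99 log2 units (SE 0.073, limma adjusted p = 6.29e-09), a 3.98-fold higher signal in number 1.

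B4galt1 was also higher in number 1, at 10.99 in PMA array 1 and 11.25 in control array 1. The other arrays stood at 10.04 and 9.67 in PMA arrays 2 and 3 and at 9.66 and 9.67 in control arrays 2 and 3. The groups did not overlap, and the difference was 1.36 (SE 0.12, limma adjusted p = 5.90e-06), or 2.57-fold. It was 1.14 in PMA arrays and 1.58 in control arrays. B4galt2 stood at 7.42 in PMA array 1 and 7.46 in control array 1, against 6.92 to 7.02 in the other 4 arrays, a difference of 0.49 (SE 0.067, limma adjusted p = 0.000150).

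The main poly-LacNAc extension enzyme went the other way. B3gnt2 stood at 7.40 in PMA array 1 and 7.66 in control array 1, against 8.55 and 8.62 in PMA arrays 2 and 3 and 8.42 and 8.63 in control arrays 2 and 3. Both number 1 arrays were below the other 4, with a difference of -1.02 (SE 0.091, limma adjusted p = 6.18e-06), or 2.03-fold lower. The probe set of B3gnt2 carries the suffix s, which marks probes shared by several transcripts. Gcnt2 was lower in number 1 as well, at 7.83 in PMA array 1 and 7.69 in control array 1, against 8.19 to 8.51 in the other 4 arrays. Its difference was -0.64 (SE 0.080, limma adjusted p = 6.82e-05), or 1.56-fold lower. The probe set is named for one of several RefSeq transcripts of Gcnt2, which use different starts, and no other probe set was named for the gene.

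The other 5 members did not pass. B4galt4 averaged 9.12 in number 1 and 9.33 in numbers 2 and 3 (difference -0.21, SE 0.084, limma adjusted p = 0.0705), and B4galt3 averaged 8.50 in number 1 and 8.63 in numbers 2 and 3 (difference -0.13, SE 0.069, limma adjusted p = 0.167). In both genes the number 1 arrays lay below the other 4. Both passed as lower after a further quantile normalization of the arrays, at -0.41 for B4galt4 and -0.30 for B4galt3. B4galt4 also passed with median-centred arrays (adjusted p = 0.0448 by limma). B3gnt4 averaged 6.32 in number 1 and 6.21 in the others, a difference of 0.11 (SE 0.075). B4galnt3 differed by -0.035 (SE 0.069), and B3galt1 by 0.076 (SE 0.065), which was -0.00038 after the further normalization. In all, 3 of 10 members had both number 1 arrays above and 4 had both below the rest, against 37.8% and 18.1% of all probe sets. The split of all calls moved from 66.1% higher to 54.5% higher with the further quantile normalization, in which 3 members were higher and 4 lower.

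**Figure D3:**
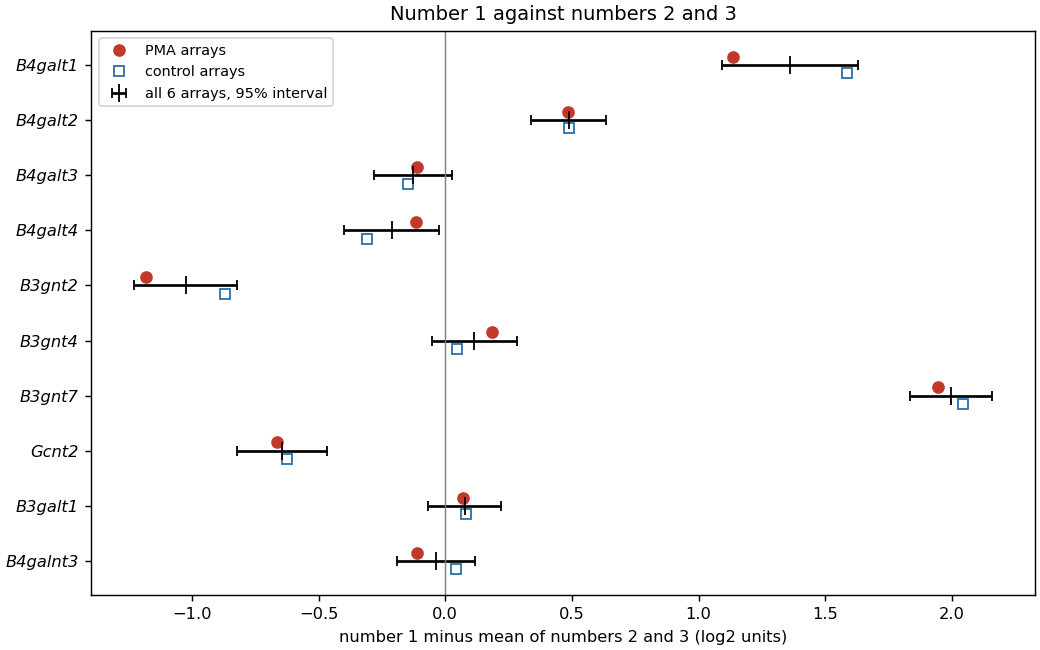
Number 1 minus the mean of numbers 2 and 3 in log2 units (x axis) for each gene (y axis), in PMA arrays (filled circles), in control arrays (open squares) and over all 6 arrays with the 95% interval (bar). B3gnt7, B4galt1 and B4galt2 lie above 0 and B3gnt2 and Gcnt2 below 0 in both groups.

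Whether the PMA difference depended on the number was tested as an interaction. Using limma and Benjamini-Hochberg adjustment, 0 of 10 members passed and 0 had an unadjusted p under 0.05 (5.62% of all probe sets did), against 1 of 1246 probe sets (0.0803%), the unnamed uc009kma.1_psr1_at, given because of that count. The largest values among members were -0.45 (SE 0.21, limma adjusted p = 0.743) in B4galt1 and -0.31 (SE 0.16, limma adjusted p = 0.743) in B3gnt2. Between numbers 2 and 3, 0 of 10 members passed by limma, none had an unadjusted p under 0.05 (0 of 10), and the largest difference was 0.18 (SE 0.13) in B4galt1.

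The members were set beside the rest of their enzyme families, grouped by symbol after the values were seen. Of all probe sets 27.5% were called higher and 14.1% lower in number 1, and no family was tested against those shares. In the β1,4-galactosyltransferase family 4 of 7 measured genes were higher in number 1, 1 was lower and 2 did not pass. B4galt5, which acts on glycosphingolipids and other acceptors, averaged 9.77 in number 1 and 8.39 in numbers 2 and 3, a difference of 1.38 (SE 0.080). B4galt7, which builds the linker of glycosaminoglycans, was the lower one in that family, at -0.26 (SE 0.078). Of 7 β1,3-GlcNAc-transferases 2 were higher, B3gnt7 and B3gnt9, and 3 were lower, B3gnt2, B3gnt3 and B3gnt5. B3gnt3, which extends core 1 O-glycans, had the largest PMA difference of the related enzymes, -0.17 (SE 0.58, limma adjusted p = 0.999), and differed by -1.40 in number 1.

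All 3 measured β1,6-GlcNAc-transferases were lower in number 1, beside 14.1% of all probe sets, in a family grouped after the values were seen. Gcnt3, the mucin-type core 2 and core 4 enzyme, averaged 6.71 in number 1 and 8.04 in the others (difference -1.33, SE 0.074), and Gcnt1, the leukocyte-type core 2 enzyme, differed by -0.92 (SE 0.088). Of 5 β1,3-galactosyltransferases 1 was lower and 4 did not pass. The one was B3galt5, known in humans as a type 1 chain enzyme of epithelia, at 5.03 in number 1 and 7.19 in numbers 2 and 3, a difference of -2.17 (SE 0.077, limma adjusted p = 5.12e-09). Of 4 β1,4-N-acetylgalactosaminyltransferases 2 were higher, B4galnt2, which makes the Sda antigen, at 1.43 (SE 0.23), and B4galnt4, the other LacdiNAc enzyme, at 0.79 (SE 0.084). The calls of these families kept their direction with median-centred and with further quantile-normalized arrays, except that B3gnt9 no longer passed in the second (adjusted p = 0.0572 by limma) and B4galt3 and B4galt4 passed as above.

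Genes that supply, receive and finish the chains also differed in number 1 in both directions, beside the 27.5% higher and 14.1% lower of all probe sets. Of 15 measured genes of donor synthesis and transport 5 were higher and 5 lower. The lower ones included Gfpt2, which starts the hexosamine pathway to UDP-GlcNAc, at -1.32 (SE 0.077), and Slc35a3, the Golgi transporter of UDP-GlcNAc, at -1.23 (SE 0.12). Galk1, the galactokinase, was higher at 0.59 (SE 0.072) and had the largest PMA difference of this list, -0.14 (SE 0.25). Slc35a2, the Golgi transporter of UDP-galactose, differed by -0.18 (SE 0.079, limma adjusted p = 0.0907), and it passed as lower with median-centred or further normalized arrays. Its other probe set differed by -0.085 in number 1 (SE 0.072, limma adjusted p = 0.382). After the further quantile normalization 4 genes of this list were higher and 6 lower, Galk2 no longer passing. Of 11 genes of acceptor arms and cores 2 were higher, 1 was lower and 8 did not pass. With median-centred arrays C1galt1 also passed as lower (2 higher, 2 lower), and after the further normalization Mgat1, Man2a1 and Mgat4b did (2 higher, 4 lower). Man2a2, a Golgi mannosidase, and Mgat3, which adds the bisecting GlcNAc, were the higher ones, at 0.48 (SE 0.086) and 0.44 (SE 0.078). Man2a2 also had the largest PMA difference of this list, -0.13 (SE 0.21).

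Of 19 genes listed under caps and sulfation, not all of which act on LacNAc itself, 7 were higher in number 1 and 3 were lower. After the further normalization 6 were higher and 3 lower, Chst8 no longer passing. St6gal1, the α2,6-sialyltransferase of LacNAc ends, led at 2.22 (SE 0.11), followed by Chst2, a GlcNAc 6-O-sulfotransferase, at 1.47 (SE 0.072). Chst4 had the largest PMA difference of this list, 0.14 (SE 0.26). Of 15 readers, carriers and degrading enzymes 6 were higher and 1 was lower. With median-centred arrays Hexa and Lgals12 no longer passed (4 higher, 1 lower), and after the further quantile normalization Lamp2 was lost as well (3 higher, 1 lower). Lgals4, a galectin of epithelia, was the lower one at -3.15 (SE 0.072), and Lgals1 was higher at 1.68 (SE 0.066). Lamp2, a lysosomal membrane protein that carries poly-LacNAc, had the largest PMA difference of the list at 0.27 (SE 0.18). Its other probe set had a PMA difference of 0.0054 (SE 0.13). In number 1 that probe set differed by 0.23 (SE 0.090, limma adjusted p = 0.0618) and did not pass. In each of these lists 0 genes passed for PMA by limma and 0 had an unadjusted p under 0.05.

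**Figure D4:**
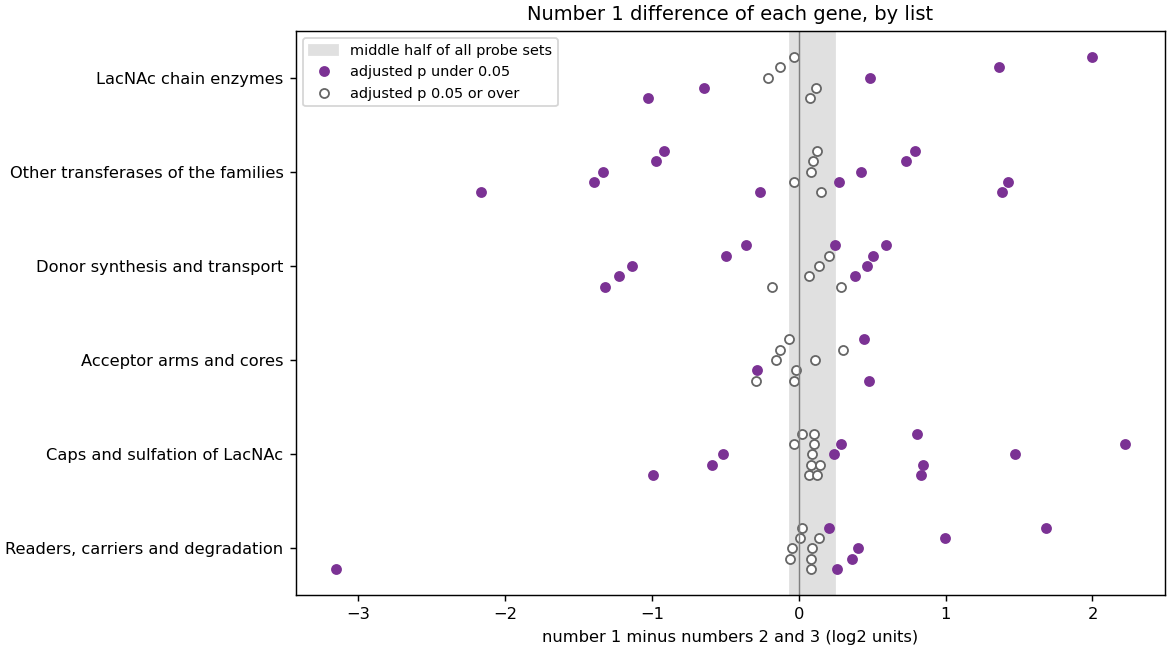
Number 1 minus numbers 2 and 3 in log2 units (x axis), 1 point per gene, for the 10 LacNAc chain enzymes and 5 lists of related genes (y axis), filled where the limma adjusted p was under 0.05. The grey band runs from the lower to the upper quartile of all probe sets, -0.058 to 0.24, and called genes lie on both sides of it in every list.

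The genes with the pattern most like the leading members were found by the root mean square difference of values centred on each gene's own mean over the 6 arrays, among 908 other named genes. Nearest to B3gnt7 were Ext1 (0.046 log2 units), Gdnf (0.065) and Cmah (0.11), beside a median of 0.90 over all these genes. Nearest to B4galt1 were Notch1 (0.046), Arsa (0.059) and Igf2bp1 (0.061), with a median of 0.62. Nearest to B3gnt2 were Slc35d1, a transporter of nucleotide sugars (0.076), Hpse (0.077) and Rab7 (0.078), with a median of 0.55. These members were picked for their large number 1 differences, so closeness here largely means a number 1 difference of like size. The nearest genes differed in number 1 by 2.01 (Ext1), 1.33 (Notch1) and -1.14 (Slc35d1). Shared regulation was not tested.

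Some genes listed as markers of other cells also differed between the numbers. Of 10 leukocyte markers 3 were measured and 1 passed, and their summed linear signal was 87.3 to 107 in number 1 and 271 to 309 in numbers 2 and 3. Mrc1, the macrophage mannose receptor, made up most of that gap, at a mean of 5.07 in number 1 and 7.81 in the others, a difference of -2.74 (SE 0.12). Siglec1 differed by 0.080 (limma adjusted p = 0.469) and Siglech by -0.030 (limma adjusted p = 0.762). Of 9 endothelial and fibroblast markers 5 were measured and passed, 2 higher and 3 lower, with a summed signal of 573 to 660 in number 1 and 1035 to 1495 in numbers 2 and 3. Vcam1 made up most of that sum, at a mean of 8.69 in number 1 and 10.00 in the others. Pecam1 differed by -1.37, Vcam1 by -1.31 and Sele by -1.13, while Pdgfrb differed by 0.78 and Selp by 0.39. The 2 measured epithelial markers summed to 58.6 to 60.1 in number 1 and 48.8 to 55.2 in the others. The lowest log2 value of a measured marker was 3.29, and without a background signal these levels show neither presence nor absence. The labels name only the epithelial line. Whether other cells were present, or had a part in the differences of the members, was not tested. Between PMA and control arrays the ranges of all these sums overlapped.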

How the data were processed

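Labelled cRNA from 3 PMA and 3 control samples of MLE-15 cells was hybridised to Affymetrix arrays. The authors deposited log2 values. Per the submitters' processing notes RMA made them, by background correction, quantile normalization and probe summary. The sources used here do not name the array, the RMA version or a filter. Of 1246 probe sets, 963 were named by matching RefSeq accessions, without versions, to the GRCm38.p6 gene table, and positions of probe sets are not given, since the array names no build. Coordinates of the promoter windows are those of the RefSeq table.

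Values were used as deposited. Comparisons used limma 3.58.1 in R 4.3.3 (lmFit, eBayes) on the whole table, with Benjamini-Hochberg adjustment and a threshold of 0.05, and each SE is limma's moderated one. The procedure was also run on simulated data. The simulated arrays for PMA held no difference between numbers, unlike the real ones, so they do not check the PMA test on these arrays. The number of arrays limits the precision. Named are all members, and in each list the 2 genes of largest number 1 difference and the 1 of largest PMA difference; others are examples chosen after their values were seen. Members, lists and comparisons were chosen with earlier results of these data known.

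Shared replicate numbers were checked by correlating deviations from group means across probe sets. The same-numbered arrays gave 0.956, 0.815 and 0.912, all over 0.1, so the numbers were treated as pairs and a blocked fit on the number was run. The unlike-numbered arrays PMA 2 with control 3 gave 0.838, and PMA 3 with control 2 gave 0.886. The check therefore does not tell number 2 from number 3. With number 1 set aside the correlation was 0.041, so the pairing rests on number 1. Alternatives were a filter on low values, other scalings, an intensity trend, the block, the mean of a gene's probe sets, and arrays left out.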

Additional observations from a re-analysis of the deposited data

How the results depend on the processing

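With 3 arrays a group, these results are limited by the number of arrays, and the signal over background is unknown. For PMA, 0 of 10 members and 0 of 1246 probe sets passed by limma under all alternatives, the replicate block included (0 members, 0 probe sets), and without number 1 in both groups. For number 1 against numbers 2 and 3, B4galt1, B4galt2, B3gnt2, B3gnt7 and Gcnt2 passed under each of the 12 alternatives computed per gene (5 members and 518 probe sets with the replicate block), and 5 to 7 members passed in all. The filter on low values left out B3galt1. The block changed no call of a member. Sign changes were confined to differences that did not pass; the cause was not tested beyond the unequal numbers that leaving out 1 array gives. For PMA they were B4galt3 (-0.0022 with median-centred arrays, -0.0014 without number 1), B3gnt7 (0.00093 after a further quantile normalization, 0.027 without number 1), B3gnt2 (0.059) and B3gnt4 (-0.021), both without number 1. For number 1, B3galt1 differed by -0.00038 after the further quantile normalization. The PMA fits with 1 array left out had no term for the replicate number. Part of the difference between numbers therefore enters their PMA differences. Within numbers 1, 2 and 3 the PMA differences of B3gnt7 were -0.070, 0.067 and -0.012. Leaving out 1 array at a time gave PMA differences of -0.34 to 0.57 for B4galt1, -0.20 to 0.12 for B4galt2, -0.038 to 0.052 for B4galt3, -0.17 to 0.018 for B4galt4, -0.33 to 0.35 for B3gnt2, -0.037 to 0.084 for B3gnt4, -0.65 to 0.68 for B3gnt7 and -0.037 to 0.39 for Gcnt2, and a number 1 difference of -0.11 to 0.041 for B4galnt3. It gave 403 to 543 probe sets called for number 1 and 0 to 1 between numbers 2 and 3. The interaction count was 1 probe set, 2 to 18 with 1 array left out (18 without PMA 3), and 0 with the further quantile normalization and with an intensity trend. The interaction could not be fitted without PMA 1 or control 1.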
